A study of Mus musculus with 2 samples.

Results

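The cytosolic ribosomal protein genes encode the proteins of the 40S and 60S ribosomal subunits. They were chosen here by symbol: names built as Rps or Rpl with a number and at most a short suffix, together with Rpsa, Rplp0, Rplp1 and Rplp2, leaving out pseudogene symbols ending in -ps and the Rps6k kinases, and with at least 500 unique molecular identifiers (UMIs, each standing for 1 captured transcript) over both libraries. This gave 80 members among the 30905 genes listed, 32 with small subunit symbols and 48 with large subunit symbols. Of 83 matching symbols, the 3 under the limit were Rpl39l with 55 UMIs, Rpl3l with 1 and Rpl10l with 0, while the members nearest above it were Rpl7l1 with 10441 and Rps27l with 24102.

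The cells were germinal center B cells sorted from spleens of C57BL/6J mice 8 weeks old that had been immunized with SRBC (sheep red blood cells). The strain carries no genetic change named in the labels, and all cells belong to 1 group, profiled as 2 droplet libraries of 3′ transcript ends. Whether different animals gave the 2 libraries is not stated in the labels. The p-values therefore speak only to differences between cell classes within these 2 libraries, and variation between the libraries may be technical. Their error is estimated with information shared over genes, so for a single gene it can be smaller than the spread between the libraries. There was no unimmunized or follicular B cell control, so every comparison below is between cells of the same 2 libraries.

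Each ribosome needs 1 copy of nearly every ribosomal protein, and the mRNAs of these proteins are among the most abundant in dividing cells. Many of them start with a C followed by a run of pyrimidines, the 5′ terminal oligopyrimidine (TOP) motif, through which mTORC1 controls their translation, and Myc raises transcription of ribosomal protein genes in many cells. In germinal centers, B cells divide and mutate their antibody genes in the dark zone and compete for antigen and T cell help in the light zone, where helped cells turn on Myc. A few ribosomal proteins have a second gene, such as Rps27 with Rps27l, a p53 target, and Rpl22 with Rpl22l1.

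The bases around the annotated starts of 8 members on which the results below turn are given to show which of them carry a pyrimidine run there. Each window has 30 bases of the coding strand, 15 before the RefSeq start and 15 from it on (build GRCm38.p6), and capitals mark the longest run in each window made of a C followed by at least 4 bases that are C or T, so that shorter runs stay in lower case.
Rps27 (chr3:90213634-90213663, minus strand): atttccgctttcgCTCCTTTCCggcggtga
Rps27l (chr9:66946071-66946100, plus strand): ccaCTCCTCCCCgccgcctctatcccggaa
Rps2 (chr17:24720048-24720077, plus strand): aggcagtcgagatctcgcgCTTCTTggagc
Rpl14 (chr9:120571502-120571531, plus strand): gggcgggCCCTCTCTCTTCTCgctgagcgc
Rpl7l1 (chr17:46782642-46782671, minus strand): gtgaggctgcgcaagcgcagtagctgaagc
Rpl22 (chr4:152325711-152325740, plus strand): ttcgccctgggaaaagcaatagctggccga
Rpl22l1 (chr3:28805493-28805522, plus strand): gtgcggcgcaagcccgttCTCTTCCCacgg
Rpl35 (chr2:39005117-39005146, minus strand): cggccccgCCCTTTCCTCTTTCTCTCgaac

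Of the 60 members that the RefSeq start table holds, 34 (56.7%) had such a run of at least 5 bases, against 36.2% of all 27025 starts in the table. A run of at least 8 bases stood in 24 of the 60 members (40.0%), against 9.06% of all starts. A run on the opposite strand was not searched, and the window rests on an annotated start: for the 8 genes shown, RefSeq and GENCODE starts lay between 0 and 493 bases apart. Rps27, Rpl14 and Rpl35 carried runs across the annotated start, whereas Rpl22 and Rpl7l1 had none in this window. For Rps27 and Rpl7l1 the starts lay 3 and 0 bases apart. For Rpl14, Rpl22 and Rpl35 they lay 73, 141 and 493 bases apart, so these windows hold for the RefSeq start only.

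The libraries held 75121538 and 61874342 UMIs in 8765 and 7868 barcodes. Barcodes were kept from 500 genes and 1000 UMIs upward where mitochondrial transcripts made up no more than 20%, which left 5142 and 3526, with medians of 8183.5 and 8243 UMIs and of 13.5% mitochondrial UMIs in each. The 10 germinal center B cell markers (Bcl6, Mef2b and others) had a UMI in 48.9% to 99.3% of library 1 cells and in 50.3% to 99.2% of library 2 cells, while the T cell markers were found in at most 0.312% of cells of either library. Before filtering, 22 barcodes occurred in both libraries, of which 9 passed the limits in both.

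Ribosomal protein transcripts made up 24.2% of all UMIs in library 1 and 22.0% in library 2, or 27.1% and 24.5% of UMIs that were not mitochondrial. Of the 80 members, 75 had a UMI in over 95% of the kept cells of both libraries. Rpsa, which encodes the 40S protein also known as the laminin receptor, had the most UMIs (448878 in library 1 and 324941 in library 2), and Rpl13, Rps20 and Rplp0 were also among the members with the most UMIs. These are sums of UMIs per gene at the 3′ end and are not scaled by transcript length.

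The scarcest members were Rpl7l1 and Rps27l. Rpl7l1 was taken in by its symbol only, and whether its product is a protein of the ribosome was not examined. It stood at 95.3 and 117 CPM, UMIs scaled to a fixed library total, and had a UMI in 49.7% and 53.9% of cells. Rps27l stood at 258 and 216 CPM, with UMIs in 59.3% and 59.6% of cells, while its partner Rps27 stood at 2505 and 1354 CPM. Rpl13a, Rpl22l1 and Rpl31 followed with 64145, 69700 and 90327 UMIs over both libraries. Reads of ribosomal protein genes can also match their many processed pseudogenes, so levels of single members are uncertain. The 9 listed -ps symbols held 11975 and 8834 UMIs, or 0.0841% and 0.0974% of the members' UMIs. These counts cannot show how many reads from pseudogenes were counted to members.

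Members with short coding sequences were scarcer in library 2, while long members were more abundant there. Rpl35, a protein near the exit tunnel, fell farthest behind, at 1602 CPM in library 1 and 776 CPM in library 2, a log2 ratio of -1.05. Rpl36 (-0.99), Rpl37a (-0.89), Rps27 (-0.89) and Rpl41 (-0.89), the last encoding the shortest ribosomal protein, came next. At the other end stood Rps2, a small subunit protein at the mRNA entry channel, with 4336 and 5596 CPM and a log2 ratio of 0.37. Rplp0 (0.31), Rpl7l1 (0.29), Rps3 (0.29) and Rpl10 (0.28) followed it. With 1 library on each side there is no test of these ratios.

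Over the 80 members the median log2 ratio of library 2 to library 1 was -0.15, with 49 members below 0 and 31 above, while the median over 8258 other protein-coding genes with at least 500 UMIs was 0.04. The 10 members with coding sequences under 300 bases all lay below 0, with a median of -0.85, and so did all 17 members from 300 to under 400 bases, with a median of -0.45. From 500 to under 700 bases the median of 16 members was 0.15, and all 15 members from 700 bases up to under 1500 lay above 0, with a median of 0.23. Spearman's correlation between coding length and this ratio was 0.91 across the 80 members and -0.38 across the other genes, both as descriptions across genes that share the same 2 libraries.

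Coding length and transcript length gave different pictures for genes outside the family. Other genes with coding sequences under 300 bases, 182 in number, had a median ratio of -0.02. Transcript length was that of the best-ranked annotated transcript, and of the longest one where several ranked equally. By that length, however, the 50 other genes under 500 bases had a median of -0.65. The 10 members in that range had a median near it, at -0.78. From 500 to under 600 bases the medians were -0.41 for 9 members and -0.32 for 44 other genes. Across members, the ratio correlated less with transcript length (Spearman's rho 0.53) than with coding length. In the next 3 ranges members lay below other genes. The medians were -0.08 against 0.12 from 600 to under 800 bases, 0.02 against 0.18 up to 1000 and 0.05 against 0.19 up to 1500. Taking the longest transcript can place genes with short coding sequences in these ranges. Rpl35, for example, with a coding sequence under 400 bases, fell in the range from 800 to under 1000. What part this choice had in the lower medians was not tested.

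**Figure D1:**
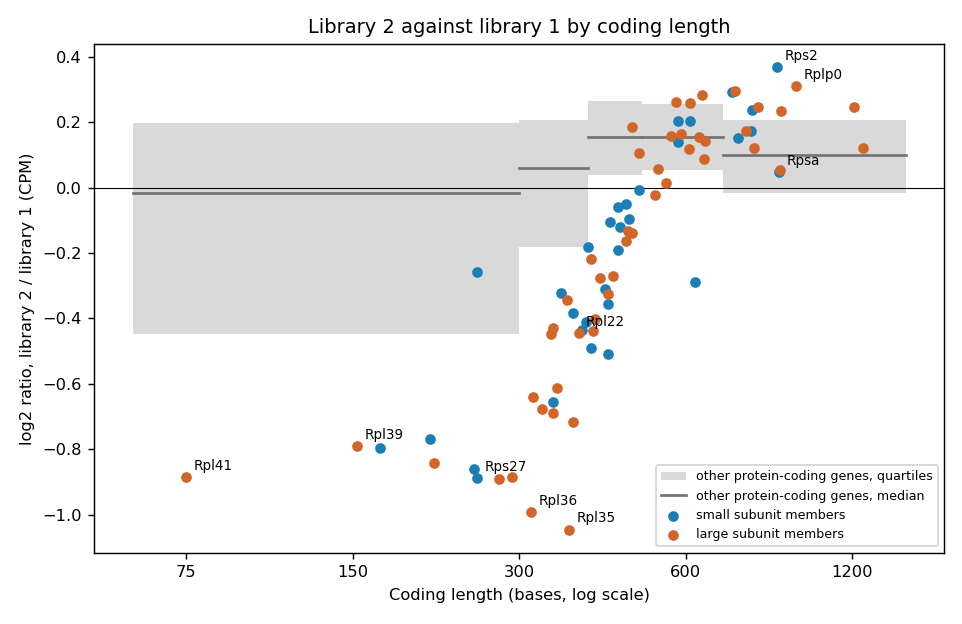
The log2 ratio of CPM in library 2 to library 1 is plotted against coding length (bases, log scale) for the 80 members, one point each, with the median (grey line) and quartiles (grey band) of other protein-coding genes in 5 length ranges. Members under 400 bases all lie below 0, down to -1.05 for Rpl35, and those of 700 bases or more all lie above 0.

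The first comparison asked whether cells with light zone or dark zone surface genes differed in ribosomal protein transcripts. Cells were gated on counts thinned to 3400 UMIs a cell: the light zone gate took cells in which Cd83 or Cd86 had 1 UMI or more and Cxcr4 had 0, and the dark zone gate the reverse. The gates held 1671 and 1157 light zone cells and 759 and 490 dark zone cells in libraries 1 and 2. Counts were summed per gate and library and tested over all genes with edgeR's quasi-likelihood test with library as a block, calling a gene at a Benjamini-Hochberg adjusted p under 0.05.

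Light and dark zone gates differed little in most ribosomal protein genes. In the light zone gate 13 members rose and 24 fell, where 15.5% of all 10655 genes tested rose and 13.9% fell (29.4% called in either direction). The sizes were small: 79 of 80 members changed by less than 0.25 on the log2 scale, and the median log2 fold change was -0.02, beside -0.002 over all genes. Of the 24 that fell, 7 belonged to the small and 17 to the large subunit. With cells of equal depth and mitochondrial share, 4 rose and 25 fell, where 10.7% of 10139 genes rose and 9.80% fell (20.5% called). Without library as a block 0 members were called in the zone gates, in the isotype comparison and in the Myc comparison below, where 3.38%, 0.819% and 6.29% of all genes were called, and 3 rose in the cell cycle comparison, where 35.9% of all genes were called.

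The member that changed most was Rpl7l1, at 105 CPM in the light zone gate against 82.1 in the dark zone gate of library 1, and at 128 against 101 in library 2. Each library had more of it in light zone cells, by 0.33 on the log2 scale (SE 0.06, edgeR adjusted p = 1.34e-07). Rps27l followed, with 259 against 218 CPM in library 1 and 211 against 193 in library 2 (log2 fold change 0.18, SE 0.05, edgeR adjusted p = 0.00037). Both calls held with equal depth and mitochondrial share, at 0.28 and 0.12.

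Rps7 (0.11), Rpl34 (0.10) and Rpl27 (0.10) had the next largest rises. Rps7 stood at 2754 against 2544 CPM in library 1 and 3214 against 2953 in library 2, but at equal depth and mitochondrial share its change was 0.03 and was not called (edgeR adjusted p = 0.297), and neither was Rpl27 (0.04, edgeR adjusted p = 0.353), while Rpl34 was (0.06). Rpl10, which joins the large subunit late in its assembly, rose by 0.06 over all cells, but gave 0.01 in matched cells (edgeR adjusted p = 0.776) and -0.04 with cells limited to 10% mitochondrial UMIs.

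The largest falls in the light zone gate were in large subunit proteins and Rpsa. Rpl10a, of the stalk that guides tRNA out of the ribosome, had 2816 against 3080 CPM in library 1 and 3024 against 3283 in library 2 (log2 fold change -0.13, SE 0.02, edgeR adjusted p = 3.40e-09). Rpl8, near the peptidyl transferase center, had 3988 against 4353 and 4545 against 4942 CPM (-0.13), so that light zone cells of each library had less of both genes. Rpl36 (-0.13), Rpl6 (-0.12) and Rpsa (-0.12) followed.

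The P-stalk recruits elongation factors and is built from Rplp0, Rplp1 and Rplp2. Of the 3, Rplp1 fell by 0.11 on the log2 scale over all cells, while Rplp0 (-0.03, edgeR adjusted p = 0.274) and Rplp2 (-0.01, 0.803) did not pass the test. In matched cells Rplp1 (-0.08) and Rplp0 (-0.05, edgeR adjusted p = 0.00128) both fell, while Rplp2 (-0.01) was not called. Rpl5 and Rpl11, which bind 5S rRNA and can hold Mdm2 away from p53, gave -0.01 and -0.03 over all cells. They were not called there or in matched cells. Of the duplicated genes, Rpl3 fell by 0.09 over all cells, and Rpl22 (0.01), Rpl22l1 (-0.07), Rps27 (0.04), Rpl39 (0.02), Rps4x (-0.04) and Rpl7 (-0.01) were not called. In matched cells Rpl3 and Rpl22l1 fell by 0.09 each, while the others were not called. Of 10 genes mutated in Diamond-Blackfan anemia, an inherited failure of red cell production, 2 rose and 2 fell over all cells, beside 15.5% and 13.9% of all genes.

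Per cell, ribosomal protein transcripts took a median of 25.8% of non-mitochondrial thinned UMIs in light zone gate cells of library 1, against 26.5% in its dark zone gate cells, and 23.9% against 24.4% in library 2. Cells passing neither gate were highest, at 27.2% and 24.96%. These neither-gate cells were also the deepest, with median depths of 10320 and 10641 UMIs, against 8155 and 8821 in the light zone gate. Their part in the higher share was not tested. The gates also differed in cell cycle: 37.9% and 38.7% of light zone gate cells were G2/M-like, against 61.5% and 59.0% of dark zone gate cells. With equal phase shares 5 members rose in place of 13.

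**Figure D2:**
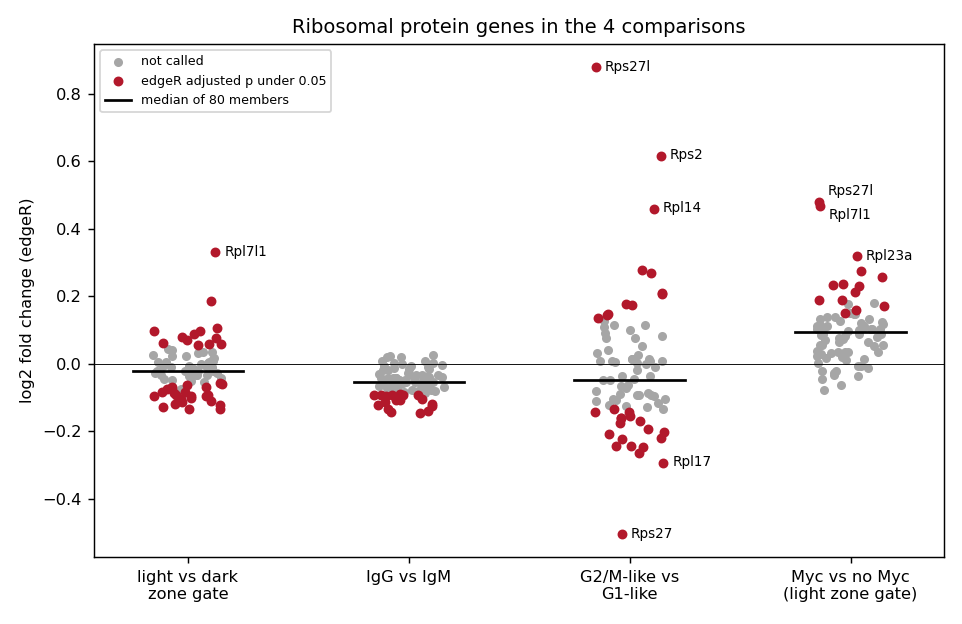
Each point is the edgeR log2 fold change of 1 of the 80 members in the 4 comparisons, coloured where the adjusted p is under 0.05, with the median as a black line. Points spread most widely in the cell cycle comparison, from -0.50 for Rps27 to 0.88 for Rps27l.

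The second comparison was between cells that had switched to IgG and cells still expressing IgM. Cells with at least 5 heavy chain UMIs of which at least 80% came from 1 class were taken, 2192 and 1437 IgG cells and 1775 and 1323 IgM cells. In IgG cells 19 members fell and 0 rose, where 8.17% of 11231 genes fell and 5.87% rose (14.0% called). No member rose at an unadjusted p under 0.05 either (0 of 80), a limit for which the share of all genes is not given here. DESeq2 also called 0 members higher, where it called 2.44% of all genes (79 higher and 195 lower). The median log2 fold change was -0.05, against 0.01 over all genes, and all 80 members changed by less than 0.25.

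Rpl10 fell most, at 1826 CPM in IgG cells against 2028 in IgM cells of library 1 and 2259 against 2421 in library 2 (log2 fold change -0.15, SE 0.03, edgeR adjusted p = 0.000191). Rpl39, which lines the exit tunnel, had 2080 against 2279 CPM and 1206 against 1306 CPM (-0.14). IgG cells were thus below IgM cells of the same library for both genes. The next were Rpl22l1 (-0.14), Rps7 (-0.13) and Rps3 (-0.12), the last a protein of the mRNA entry channel.

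Of the other duplicated genes, Rps27 and Rpl7 fell by 0.09 each, whereas Rpl22 (-0.04), Rpl3 (-0.03), Rps4x (-0.08) and Rps27l (-0.05) were not called. Rpl7l1 (-0.01) was not called either. No P-stalk or 5S RNA binding member passed the test over all cells, with values of -0.04 for Rplp0, 0.02 for Rplp1, -0.04 for Rplp2, -0.04 for Rpl5 and -0.06 for Rpl11. In cells matched for depth and mitochondrial share, where most members fell, all of these were called lower. Their values there were -0.03 for Rplp0, -0.01 for Rplp1, -0.03 for Rplp2, -0.03 for Rpl5 and -0.07 for Rpl11. Rpl3 (-0.04) and Rps4x (-0.08) were called lower there too, while Rpl22, Rps27l and Rpl7l1 were not called. Of the 10 Diamond-Blackfan genes 0 rose and 2 fell over all cells, beside 5.87% and 8.17% of all genes.

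IgG cells had slightly more mitochondrial UMIs, with medians of 13.9% and 14.0% against 12.6% and 12.4%. In 1647 and 1158 cells a class drawn to equal depth and mitochondrial share, 73 members fell and 0 rose, at the same median of -0.05, where 7.79% of genes fell and 4.85% rose (12.6% called). The larger count came with smaller errors and not with larger changes: Rpl10 was at -0.10 and Rpl39 at -0.11 there. These errors can lie below the spread between libraries. Rps3, for example, had an SE of 0.006, with -0.08 in library 1 and -0.11 in library 2. The members' share of non-mitochondrial UMIs in those cells was 26.8% in IgG and 27.3% in IgM cells of library 1, and 24.2% and 24.7% in library 2. Over all genes, scaling by total UMIs without TMM gave 965 higher and 829 lower calls in place of 659 and 918, and 0 higher and 18 lower members.

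The third comparison, between G2/M-like and G1-like cells, gave the widest spread among members, and its result depended on which cells were compared. Phases were called from S and G2/M gene lists on thinned counts, with 735 and 438 G1-like, 1637 and 1171 S-like and 2305 and 1526 G2/M-like cells. Over all cells 12 members rose and 19 fell in G2/M-like cells, where 27.9% of 10897 genes rose and 26.8% fell (54.7% called). G2/M-like cells were however deeper, with medians of 10380 and 10393 UMIs against 5291 and 5522. When 633 and 375 cells a class were drawn to equal depth and mitochondrial share, 77 members fell and 1 rose, where 19.4% of 9504 genes fell and 18.9% rose (38.3% called).

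In those matched cells ribosomal protein transcripts made up 24.1% of non-mitochondrial UMIs in G2/M-like cells and 27.6% in G1-like cells of library 1, and 22.0% and 26.1% in library 2. The median log2 fold change of members was -0.30, beside -0.05 over all cells of each class. Over all cells it even differed in sign between libraries, 0.02 in library 1 and -0.11 in library 2, while in matched cells it was -0.27 and -0.32. Per cell, the median share over all cells was 26.6% and 24.9% in G1-like, 27.6% and 25.3% in S-like and 25.5% and 23.5% in G2/M-like cells.

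**Figure D3:**
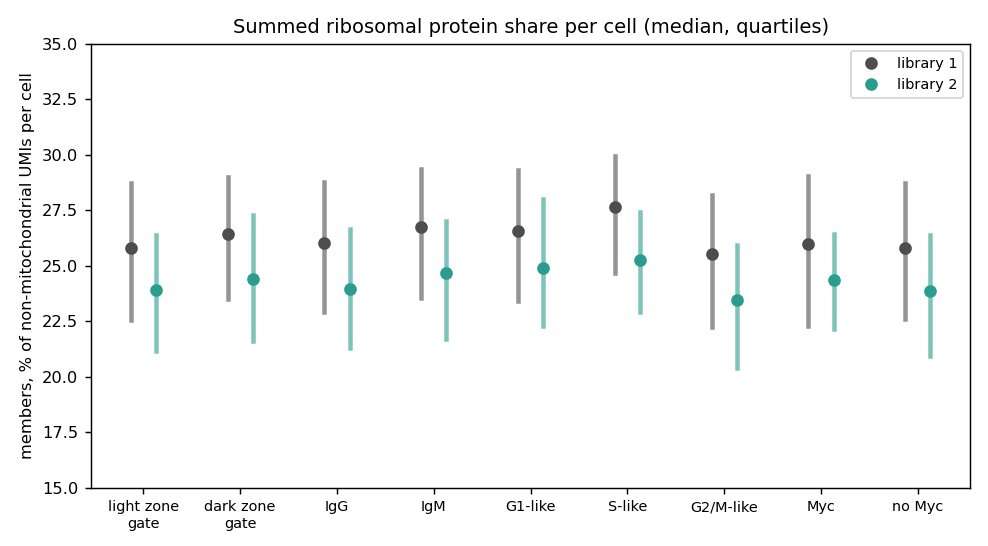
Dots give the median per cell of the members' summed share of non-mitochondrial thinned UMIs (y axis, percent, starting at 15) in 9 cell classes, and bars the quartiles, for library 1 (grey) and library 2 (green). S-like cells have the highest phase median in each library (27.6% and 25.3%), and library 2 lies below library 1 in every class shown.

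Rps27 and Rps27l moved in opposite directions. Rps27 had 2382 CPM in G2/M-like against 3383 in G1-like cells of library 1 and 1283 against 1906 in library 2, which is -0.50 on the log2 scale (SE 0.06, edgeR adjusted p = 1.20e-15). Rps27l had 255 against 145 CPM and 214 against 117 CPM, which is 0.88 on that scale (SE 0.06, edgeR adjusted p = 1.05e-43). In each library the classes stood apart in opposite order for the 2 genes. Both directions held in matched cells, at -0.42 for Rps27 and 0.19 for Rps27l (edgeR adjusted p = 0.0436), the latter being the 1 member that rose there.

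The other members with the largest rises over all cells had log2 fold changes below 0 in matched cells, though Rpl7l1 had this in library 2 only. Rps2 had 4332 against 2798 CPM in library 1 and 5545 against 3829 in library 2, a log2 fold change of 0.62 (SE 0.06), but -0.25 in matched cells. Rpl14, a large subunit protein, had 2221 against 1603 and 2428 against 1866 CPM, a log2 fold change of 0.46. In matched cells it gave -0.11 (-0.06 in library 1 and -0.16 in library 2). Rpl36a went from 0.27 to -0.23, and Rpl7l1 from 0.28 to -0.06, where it was not called (edgeR adjusted p = 0.643). The matched values of Rpl7l1 were 0.08 in library 1 and -0.23 in library 2. In matched cells Rps2 had 2616 CPM in G2/M-like and 2901 in G1-like cells of library 1, and 3387 and 3941 in library 2, so that the G2/M-like classes were now the lower.

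The largest falls over all cells, besides Rps27, were in Rpl17 (-0.29), which lines the exit tunnel, Rpl37a (-0.26), Rps13 (-0.25) and Rpl37 (-0.24). Rpl17 had 3988 against 4843 CPM in library 1 and 3994 against 5172 in library 2. These falls kept their direction in matched cells, with -0.43 for Rps13 and -0.42 for Rpl37. The members that fell most in matched cells were Rpl10 (-0.51) and Rpl12 (-0.49), a protein at the base of the P-stalk, of which neither was called over all cells (0.01 and -0.14).

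Of the P-stalk genes, Rplp0 (0.18) and Rplp1 (0.17) rose over all cells and fell in matched cells (-0.24 each), while Rplp2 went from 0.03, not called, to -0.23. Rpl5 and Rpl11 gave 0.01 and -0.01 over all cells, and both fell by 0.31 in matched cells. Rpl22l1 rose by 0.21 over all cells beside -0.11, not called, for Rpl22. In matched cells both fell, by 0.30 and 0.40. Rpl3 rose by 0.15 over all cells and fell by 0.30 in matched cells, Rpl39 fell by 0.13 and by 0.42, and Rpl7 (-0.02), Rpl10 and Rps4x (0.001) were not called over all cells. Of the 10 Diamond-Blackfan genes 1 rose and 4 fell over all cells, beside 27.9% and 26.8% of all genes. Scaling by total UMIs without TMM gave 9 higher and 32 lower members over all cells.

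**Figure D4:**
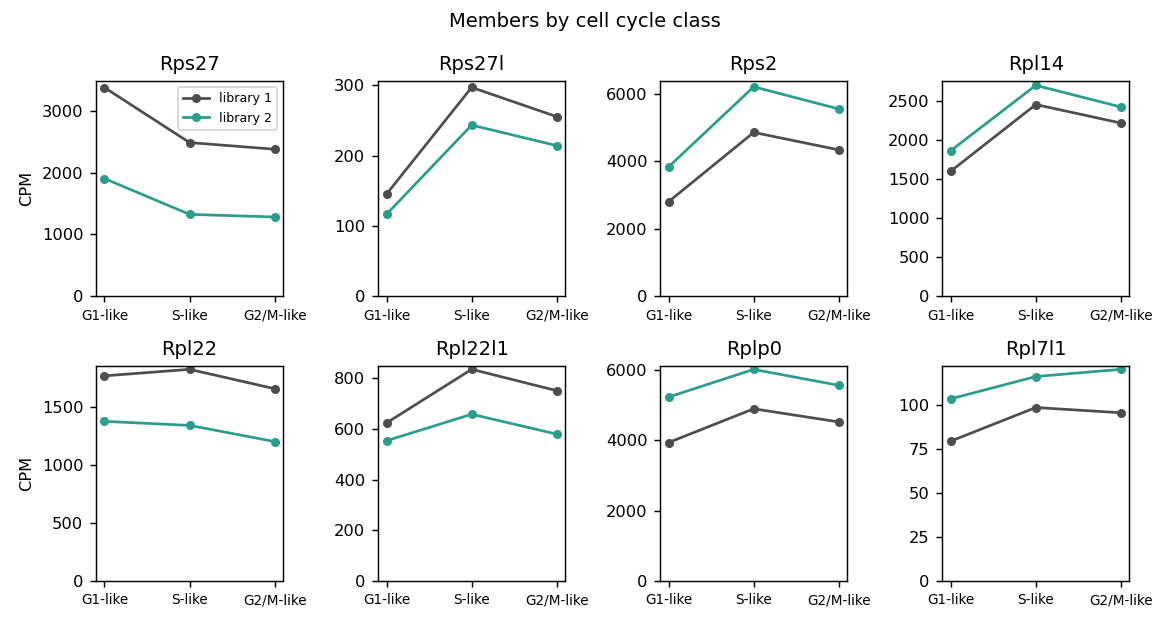
Each panel shows the CPM of 1 member in G1-like, S-like and G2/M-like cells, summed over all cells of the class, for library 1 (grey) and library 2 (green), with the y axis from 0. Rps27 falls from 3383 to 2382 in library 1 while Rps27l goes from 145 to 255, and both libraries show the same order.

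**Figure D5:**
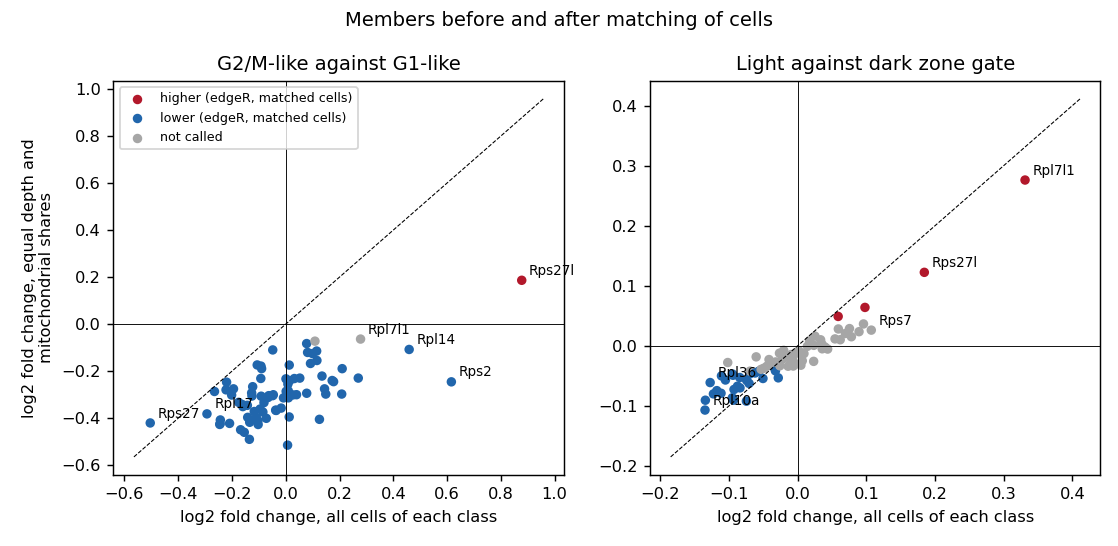
Each point is 1 member, with its log2 fold change over all cells of each class on the x axis and that in cells drawn to equal depth and mitochondrial share on the y axis, coloured by the edgeR call in matched cells; the dashed line marks equal values. In the cell cycle panel nearly all points lie below the dashed line and below 0, with Rps27l at 0.19, whereas in the zone panel points stay near the line.

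The fourth comparison was between light zone gate cells with at least 1 thinned UMI of Myc, 112 and 111 cells, and those with none, 1559 and 1046 cells. Over all these cells 14 members rose and 0 fell in cells with Myc, where 10.3% of 10068 genes rose and 6.36% fell (16.6% called). At an unadjusted p under 0.05 the edgeR counts were 28 and 0, but the share of all genes at that limit is not given here. DESeq2 called 3 members higher and 0 lower, near its background, where it called 3.98% of all genes (299 higher and 102 lower). The median log2 fold change was 0.09, beside -0.01 over all genes. The call did not last in matched cells, where 0 members rose and 0 fell (3.75% of 8224 genes rose, 3.11% fell and 6.86% were called in all, with 3 members at an unadjusted p under 0.05) and the median was 0.0002. Another random draw for the thinning also gave 0 higher members, with 7.97% of all genes called.

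Rps27l had 319 CPM in cells with Myc against 254 without in library 1 and 295 against 199 in library 2 (log2 fold change 0.48, SE 0.10, edgeR adjusted p = 0.000111). Rpl7l1 had 135 against 102 and 169 against 122 CPM (0.47, SE 0.11). Both genes were higher with Myc in each library. Rpl23a, at the tunnel exit (0.32), Rps2 (0.27) and Rpl14 (0.26) followed. In matched cells Rps27l gave 0.20 (edgeR adjusted p = 0.367), Rpl7l1 0.27 (0.310), Rpl23a 0.17 (0.120), Rpl14 0.07 (0.648) and Rps2 -0.01 (0.967), none of them called. Matching kept the cells with Myc and drew only a part of those without. The SE there was 0.11 for Rps27l and 0.14 for Rpl7l1. What part the smaller number of cells had in the lost calls was not tested.

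Of the fixed groups, Rplp0 (0.10), Rplp1 (0.10), Rplp2 (0.11), Rpl5 (0.13) and Rpl11 (0.15) were not called. Among duplicated genes Rpl10 rose by 0.17, and Rpl22 (0.06), Rpl22l1 (0.18), Rps27 (-0.08), Rpl39 (0.08), Rpl3 (0.10), Rpl7 (0.09) and Rps4x (0.04) were not called. Of the 10 Diamond-Blackfan genes 2 rose and 0 fell, beside 10.3% and 6.36% of all genes. In library 2 the cells with Myc were deeper, at a median of 11509 against 8538 UMIs, and had fewer mitochondrial UMIs, 9.46% against 13.2%. In library 1 the medians were 8312 against 8133 UMIs and 13.3% in each class.

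Members differed strongly in how they followed the mitochondrial share of a cell. Depth differed along it too: median depths were 11646.5 and 9007.5 UMIs in the 238 and 218 cells under 5% mitochondrial UMIs, 16469.5 and 16268 at 5 to 10%, 8162 and 8224.5 at 10 to 15%, and 6116 and 6051 at 15 to 20%. Between 5 to 10% and 15 to 20% Rps27l went from 393 to 105 CPM of non-mitochondrial UMIs in library 1 and from 298 to 108 in library 2, log2 ratios of 1.91 and 1.47. Rpl10 (1.30 and 0.95), Rpl15 (1.04 and 0.97), Rpl23a (1.12 and 0.85) and Rps2 (0.97 and 0.77) were also higher in cells with few mitochondrial UMIs. Rpl36 (-0.54 and -0.71), Rps15 (-0.56 and -0.67) and Rpsa (-0.61 and -0.43) went the other way.

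In all, 47 members were higher in the cells with few mitochondrial UMIs in both libraries, 22 lower in both, and 11 opposite between libraries. The same count over all genes is not given here, so these numbers cannot be read as particular to the members. As a description without a test, Rps27l, Rpl10, Rpl23a and Rps2 had larger ratios here than their log2 fold changes in any of the 4 comparisons. In library 1 the summed share of non-mitochondrial UMIs was 28.8%, 28.0%, 26.7% and 24.99% in the 4 ranges from the lowest mitochondrial share to the highest. In library 2 it was 25.1%, 24.5%, 25.1% and 23.8%, with no steady order.

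From cell to cell, the members' summed share of non-mitochondrial thinned UMIs had medians of 26.4% and 24.4%, with SDs over cells of 4.57 and 4.12 percentage points, where counting error alone would give 0.807 and 0.786. Rps2 had the largest ratio of variance to mean over cells among members, a measure that grows with the mean level. Its median was 9 thinned UMIs a cell in library 1, from 2 at the 5th percentile to 26 at the 95th, and 13 in library 2, from 4 to 32. Its variance was 4.77 and 4.93 times its mean, where counting error alone gives a ratio of 1, and the median over 942 and 974 genes with a mean of at least 0.5 thinned UMIs was 1.20 and 1.19.

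Rplp0 (2.77 and 2.85) and Rpsa (2.53 and 2.23) also had high ratios. Within phases the ratio of Rps2 was 2.99 and 3.58 in G1-like, 4.59 and 4.64 in S-like and 4.99 and 5.11 in G2/M-like cells, so it was lowest in the G1-like cells of each library. Its mean fell with mitochondrial share, from 15.5 thinned UMIs at 5 to 10% to 7.56 at 15 to 20% in library 1 and from 19.4 to 10.6 in library 2.

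Other TOP mRNAs encode elongation factors and partners of translation. Of 21 such genes tested outside the family, 6 rose and 2 fell in the light zone gate, 0 and 4 in IgG cells, 7 and 5 in G2/M-like cells and 9 and 1 in light zone gate cells with Myc, over all cells of each class, where 29.4%, 14.0%, 54.7% and 16.6% of all genes were called. In matched cells the counts were 4 and 2, 0 and 7, 0 and 14, and 1 and 0, where 20.5%, 12.6%, 38.3% and 6.86% of all genes were called. Npm1, a nucleolar chaperone of ribosome assembly, rose by 0.33 in the light zone gate, by 0.76 in G2/M-like cells and by 0.79 with Myc. In matched cells Npm1 rose by 0.29 in the light zone gate and by 0.38 with Myc (edgeR adjusted p = 1.31e-08), and fell by 0.32 in G2/M-like cells.

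Btf3, of the nascent chain complex, rose by 0.32 in the light zone gate (0.17 in matched cells) and by 0.50 with Myc, where it was not called in matched cells (0.16, edgeR adjusted p = 0.213). Hnrnpa1, an RNA binding protein, rose by 0.42 with Myc (0.18, not called, in matched cells). Fau, which encodes the 40S protein eS30 but whose symbol lies outside the rule, fell by 0.45 in G2/M-like cells and by 0.30 in matched ones. Eef1g, an elongation factor subunit, rose by 0.45 in G2/M-like cells and fell by 0.18 in matched ones. In IgG cells the falls were led by Vim (-0.21), Tpt1 (-0.15) and Btf3 (-0.12), of which Tpt1 (-0.08) and Btf3 (-0.08) were also called in matched cells. Vim fell by 0.19 in the light zone gate and by 0.23 in matched cells.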

How the data were processed

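Per the labels' protocols, cells were loaded on the 10x Genomics 3′ version 3 kit. The deposited matrices hold whole-number UMI counts per gene and barcode, made by the authors with Cell Ranger 3.0.2 per the file headers, on build mm10 per the submitters' processing notes. The annotation release and the cell calling are not given in the sources used here. Members and gene lists were chosen with earlier results of these data known.

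Barcodes under 500 genes or 1000 UMIs, or over 20% mitochondrial UMIs, were dropped, and no cells were clustered or named. Scrublet called 0 doublets of 5142 and 3526 barcodes, so it did not work here and doublets were kept. Zone, Myc and phase classes came from counts thinned to 3400 UMIs a cell (4677 and 3135 cells were deep enough), phases by scanpy 1.11.5 scores with members kept out of the control genes. Isotypes came from unthinned counts. Unthinned counts were summed per class and library and fitted with edgeR 4.0.16 (filterByExpr, TMM, quasi-likelihood test, library as a block because both classes come from the same library), Benjamini-Hochberg adjusted over all genes tested. With 4 sums a comparison, 1 residual degree of freedom a gene remains, so the error rests on dispersion shared over genes. Deviations of the sums of 1 library correlated at 0.49, 0.59, 0.40 and 0.28 in the zone, isotype, phase and Myc comparisons. CPM was computed over all UMIs of a sum, mitochondrial ones included. SE is the log2 fold change divided by the root of the F statistic. DESeq2 1.42.0 and other settings were alternatives. Matching to equal depth and mitochondrial share, in bins of 0.5 log2 units and 2.5 percentage points, was added after seeing the data, as was coding length.

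Named members were, in each comparison, the 5 with the largest change in each direction among those called with the same sign in both libraries, the duplicated genes, P-stalk and 5S RNA binding members. For levels and the library ratio the 5 highest and 5 lowest were named, except 1 that is not reported here, and from the other TOP genes the 3 with the largest change. Members named for matched cells, mitochondrial share and cell-to-cell spread were chosen after their values were seen.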

Additional observations from a re-analysis of the deposited data

How the results depend on the processing

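Each comparison rests on 2 libraries with classes cut from the same cells, and the cells with Myc are the smallest class. Of 539 alternative values of single named genes, 406 kept their direction and side of the threshold, 123 kept their direction but were no longer called, and 10 reversed. Of 172 alternative values of counts, medians and shares, 110 stayed within the limits of 1.5 times or 1 SD. The cause was not tested for any that moved. Counts could not be tested with 1 library left out, since that leaves no residual degree of freedom, and another random draw was not run for isotypes, which do not use it.

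Library as a replicate block decided the calls. With no replicate block, 0 members rose and 0 fell in the zone gates, 0 fell in IgG cells, 3 rose and 0 fell in G2/M-like cells, and 0 rose with Myc, where 3.38%, 0.819%, 35.9% and 6.29% of all genes were called. With 1 library left out, the median log2 fold change ranged from -0.027 to -0.014 for zone, from -0.073 to -0.037 for isotype, from -0.108 (library 2 alone) to 0.019 (library 1 alone, reversed) for phase and from 0.078 to 0.104 for Myc.

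For the zone gates, members higher numbered 2 with DESeq2, 1 at a mitochondrial limit of 10%, 7 with thinned counts summed, 8 with another random draw, 5 with equal phase shares and 4 with equal depth and mitochondrial shares, in place of 13. Members lower numbered 8 with DESeq2, 12 with thinned counts summed and 12 with gates of at least 2 UMIs, in place of 24. All genes called were 29.4% as reported, 7.6% with DESeq2, 18.7% at the 10% limit, 16.3% with thinned counts, 27.8% with another draw, 23.2% with gates of 2 UMIs, 20.3% with equal phase shares and 20.5% with equal depth and mitochondrial shares. The median was -0.010 with total UMIs without TMM, -0.011 with no filter on low counts, -0.043 at the 10% limit, -0.0028 with thinned counts, -0.034 with another draw, -0.0083 with gates on unthinned counts and 0.018, reversed, with gates of at least 2 UMIs. Rpl10 reversed to -0.042 at the 10% limit.

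For IgG against IgM, members lower numbered 10 with DESeq2, 9 at the 10% limit, 49 with thinned counts summed, 11 without the highest 6% of doublet scores and 73 with equal depth and mitochondrial shares, in place of 19, where all genes called were 2.44%, 13%, 9.11%, 12.3% and 12.6%, in place of 14.0%. The median was -0.086 with isotypes on thinned counts.

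For G2/M-like against G1-like cells, members lower numbered 32 with total UMIs without TMM, 10 with no filter, 39 with thinned counts summed, 11 with another draw and 77 with equal depth and mitochondrial shares, in place of 19. Members higher numbered 5 at the 10% limit, 4 with thinned counts summed, 7 with scores on unthinned counts, 7 without cells near a score boundary and 1 with equal depth and mitochondrial shares, in place of 12. All genes called were 54.7% as reported, 53.6% without TMM, 34.7% with no filter, 42.1% with thinned counts, 53.1% with another draw, 44.2% at the 10% limit, 54.5% with unthinned scores, 48.9% without boundary cells and 38.3% with equal depth and mitochondrial shares. The median was 0.0064, reversed, with no filter and -0.300 with equal depth and mitochondrial shares. There Rps2 (-0.245), Rpl14 (-0.108), Rpl7l1 (-0.064), Rpl36a (-0.230), Rplp1 (-0.240), Rpl22l1 (-0.297), Rpl3 (-0.297) and Rplp0 (-0.245) reversed. Of these, Rpl7l1 was not called and lay below 0 in library 2 only.

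For Myc, members higher numbered 3 with DESeq2, 8 with no filter, 7 at the 10% limit, 3 with thinned counts summed, 0 with another draw, 3 with at least 2 Myc UMIs, 7 with equal phase shares and 0 with equal depth and mitochondrial shares, in place of 14, where all genes called were 3.98%, 9.88%, 11.5%, 3.49%, 7.97%, 10.5%, 12.7% and 6.86%, in place of 16.6%. The median was 0.065 with total UMIs without TMM, 0.056 with no filter, 0.061 at the 10% limit, 0.061 with thinned counts and 0.00017 with equal depth and mitochondrial shares, where Rps2 reversed to -0.0086. With no filter the median of all genes moved to 0.10 in the phase and -0.15 in the Myc comparison.

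The median log2 ratio of library 2 to library 1 was -0.240 at the 10% limit, -0.230 with no mitochondrial limit, -0.157 over UMIs without mitochondrial genes and -0.188 with TMM scaling, in place of -0.152. The members' share of UMIs was 26.3% and 23.1% at the 10% limit and 27.1% and 24.5% over UMIs without mitochondrial genes, in libraries 1 and 2.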
